A study of Homo sapiens with 44 samples.

Results

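The messenger RNAs of 9 enzymes of serine synthesis and folate-bound one-carbon metabolism were followed, PHGDH, PSAT1, PSPH, SHMT1, SHMT2, MTHFD1, MTHFD1L, MTHFD2 and ALDH1L2. They were chosen by gene symbol out of the 23367 genes of the deposited count table, with earlier results of these data known. Counts of members set beside shares of all genes are therefore descriptions. All 9 were among the 14534 genes that passed the filter on low counts. The cells were IMR5/75, a human neuroblastoma line that carries extra copies of the oncogene MYCN. All cells held a tetracycline-switched short hairpin RNA directed at MYCN, and all had been stopped at the G1:S boundary by 18 h of thymidine. Cells were taken at 0, 3, 6, 8, 10, 12, 14, 16, 18, 20 and 22 h after thymidine was washed out, with the hairpin induced (Tet plus) or not (Tet minus). There were 2 libraries, described by the series as biological replicates, for each arm at each time, or 44 in 22 groups. The comparison asks how these enzymes differ, along the cell cycle, between cells with MYCN left high and cells with MYCN lowered. No library had tetracycline without this hairpin or with a control hairpin, so a response to tetracycline itself, or an off-target action of the hairpin, cannot be told apart from a response to less MYCN. Whether the line was a single clone is not given in the sources used here.

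Serine is made from the glycolytic intermediate 3-phosphoglycerate. PHGDH oxidises it, PSAT1 adds an amino group and PSPH removes the phosphate. SHMT1 in the cytosol and SHMT2 in mitochondria split serine into glycine and a carbon unit that is carried on tetrahydrofolate. In mitochondria MTHFD2 oxidises this carbon unit, MTHFD1L releases it as formate and ALDH1L2 burns it to carbon dioxide with production of NADPH. Formate passes to the cytosol, where the trifunctional enzyme MTHFD1 loads it back on folate for the synthesis of purines and thymidylate. Several of these enzymes are known targets of MYC proteins and of ATF4, the transcription factor of the amino acid response, and dividing tumour cells use the pathway for nucleotides.

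Promoter sequences are given first, as motifs of MYC and ATF4 bear on this pathway. Windows of 250 bases before the transcription start were taken from the RefSeq promoter table (GRCh38.p14), in which 6 of the 9 members matched, PHGDH, PSAT1, SHMT1, MTHFD1, MTHFD1L and MTHFD2. Both strands were searched for the E-box CACGTG, a motif bound by MYC and related factors, for TGATGNAA, the composite element of ATF4 and C/EBP factors, and for the CCAAT box, a binding motif of NF-Y, which was added after the sequences had been seen. Of the 35116 windows of this length in the table, 6.34% held CACGTG, 3.14% held TGATGNAA and 32% held CCAAT. The 4 windows below belong to the member with the largest arm difference at 0 to 14 h (MTHFD1L), the cytosolic and mitochondrial enzymes on either side of formate (MTHFD1 and MTHFD2) and the first enzyme of serine synthesis (PHGDH). Capitals mark the matches. The MTHFD1L window is shown as far as its E-box, because another listed start begins there.
MTHFD1L, chr6:150866236-150866337, plus strand: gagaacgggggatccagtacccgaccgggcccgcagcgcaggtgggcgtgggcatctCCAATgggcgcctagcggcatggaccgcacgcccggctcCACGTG
MTHFD1, chr14:64388103-64388352, plus strand: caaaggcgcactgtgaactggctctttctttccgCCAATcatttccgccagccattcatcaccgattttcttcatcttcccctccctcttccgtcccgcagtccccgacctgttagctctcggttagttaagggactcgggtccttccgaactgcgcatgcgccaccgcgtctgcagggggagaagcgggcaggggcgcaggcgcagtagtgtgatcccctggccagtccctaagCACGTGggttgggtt
MTHFD2, chr2:74198365-74198614, plus strand: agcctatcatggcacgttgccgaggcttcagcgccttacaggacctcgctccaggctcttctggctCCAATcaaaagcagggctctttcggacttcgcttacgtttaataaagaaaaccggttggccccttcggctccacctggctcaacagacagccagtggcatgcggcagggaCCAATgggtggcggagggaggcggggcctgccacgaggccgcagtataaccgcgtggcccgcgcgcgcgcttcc
PHGDH, chr1:119711684-119711933, plus strand: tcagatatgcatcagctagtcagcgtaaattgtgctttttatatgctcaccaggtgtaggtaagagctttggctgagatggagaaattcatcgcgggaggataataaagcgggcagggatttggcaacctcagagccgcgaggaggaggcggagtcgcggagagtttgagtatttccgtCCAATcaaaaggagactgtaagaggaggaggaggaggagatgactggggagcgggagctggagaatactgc

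The E-box was found in 2 of the 6 members with a window, MTHFD1 and MTHFD1L. In MTHFD1 it lay 15 to 10 bases before the start, and in MTHFD1L 154 to 149 bases before the first listed start. MTHFD1L also held TGATGCAA, 129 to 122 bases before the same start, and was the only 1 of the 6 to do so. All 6 held a CCAAT box in at least 1 of their windows. None of the marked matches overlapped another in the windows shown. These are matches of letters and not measured binding.

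Gene counts per library ranged from 10.9 M to 25.3 M (M, mega). At 0 to 14 h the range was 14.6 M to 24 M in Tet plus and 13 M to 25.3 M in Tet minus. At 16 to 22 h it was 10.9 M to 19.8 M in Tet plus and 14 M to 23.8 M in Tet minus. The arms had equal sequencing lane numbers by replicate number at 0 to 14 h. The later Tet plus libraries (16 to 22 h) have titles of another form, without a Tet label. In replicate 2 the number that opens each of these titles is not the stated time. The arm of these libraries, and the times of replicate 2, thus rest on the sample descriptions alone. Lane numbers of the later Tet plus libraries are those of the 0 to 6 h libraries and differ from those of the Tet minus libraries of the same times. For example, replicate 1 of Tet minus at 3 h and of Tet plus at 16 h have the same index sequence and lane number 8. An equal lane number is thus not a shared lane between these sets, and the sequencing run is not given. Arm and lane set, with any difference of run, cannot be told apart at 16 to 22 h. The ERCC spike-in share of counts was 0.0543% to 0.376% in those 8 libraries and 1.13% to 3.43% in their 8 Tet minus counterparts; at 0 to 14 h the shares were 0.736% to 5.85% in Tet plus and 0.806% to 4.25% in Tet minus. The targeted gene, MYCN, ranged from 938 to 1213 CPM (counts per M of the library's total after TMM scaling) in the 14 Tet plus and from 970 to 1479 CPM in the 14 Tet minus libraries of the first 14 h, and was lower in Tet plus in 14 of 14 pairs of same time and replicate number (log2 difference -0.27, SE 0.0460, adjusted p = 2.71e-05, edgeR quasi-likelihood test). At 16 to 22 h its difference was -0.26 (SE 0.0608, adjusted p = 7.87e-04). The antisense gene MYCNOS overlaps MYCN, and the strand setting of the counting is not given in the sources used here. Of the noradrenergic neuroblastoma markers, PHOX2A, HAND2, GATA3, ISL1 and CHGA were at 23.9 CPM or more in every library, while TH reached at most 0.206 CPM and DBH ranged from 2.47 to 42.5 CPM. Of the 10 markers of epithelial cells, leukocytes, endothelium and fibroblasts, KRT19 had no count in any library and EPCAM, CDH1, PTPRC, CD14, PECAM1 and DCN stayed at or below 1.31 CPM, while COL3A1 ranged from 42.4 to 213 CPM, LUM from 3.35 to 45.2 and PDGFRB from 3.27 to 8.68. The 10 markers summed to 65 to 253 CPM in Tet plus and 55.9 to 203 CPM in Tet minus at 0 to 14 h, and to 56.8 to 244 and 58 to 232 CPM at 16 to 22 h. EPCAM was higher in Tet plus by 0.77 on the log2 scale at 0 to 14 h (SE 0.225, adjusted p = 0.00742) and by 1.99 at 16 to 22 h (adjusted p = 1.60e-05), at the low levels given above. PTPRC differed by 0.79 (adjusted p = 0.173) at 0 to 14 h and was higher by 1.27 (adjusted p = 0.0121) at 16 to 22 h. COL3A1, LUM, PDGFRB and DCN passed in neither period. Of the noradrenergic markers CHGA was higher in Tet plus at 0 to 14 h by 0.66 (adjusted p = 7.80e-06), DBH by 1.19 (0.0265), HAND2 by 0.28 (0.0122) and ISL1 by 0.32 (0.0226). At 16 to 22 h CHGA (0.95, adjusted p = 1.25e-06), DBH (2.20, 0.00288) and HAND2 (0.42, 0.00407) were higher, ISL1 differed by 0.32 (0.0666), and PHOX2A and GATA3 passed in neither period. The part of these markers in the differences below was not tested.

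Averaged over 0 to 14 h, 8 of the 9 enzymes were lower in Tet plus and none was higher, with PSPH the exception (edgeR quasi-likelihood test, Benjamini-Hochberg adjusted p under 0.05). Over all tested genes 21.3% were lower and 20.1% higher in this comparison. The median log2 difference of the 9 was -0.38, against 0.01 over all tested genes. Among the members no higher call was made at an unadjusted p under 0.05 or by DESeq2 either, and DESeq2 and the fit with a replicate block each gave the same count of 8 lower. Scaling to the spike-ins moved the median of all genes to 0.13 at 0 to 14 h and to 4.41 at 16 to 22 h. With it 8 members kept a negative sign at 0 to 14 h (PSPH 0.04, none called) and none did at 16 to 22 h. Relative to that median 9 of 9 and 8 of 9 members lay below, as on the TMM scale. A change of scaling moves all genes by nearly the same amount, so this position is no separate support. All directions given here are on the TMM scale, relative to the bulk of genes. MTHFD1L differed most, at 0.615 times its Tet minus level, followed by PHGDH (0.723), MTHFD1 (0.737), MTHFD2 (0.755), SHMT2 (0.766), PSAT1 (0.841), ALDH1L2 (0.868) and SHMT1 (0.899). In bulk RNA a smaller share of expressing cells and less RNA per cell cannot be told apart. Whether the libraries of 1 replicate number came from a single culture followed over the times is not given; if so, p-values of averages over times are too small.

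**Figure D1:**
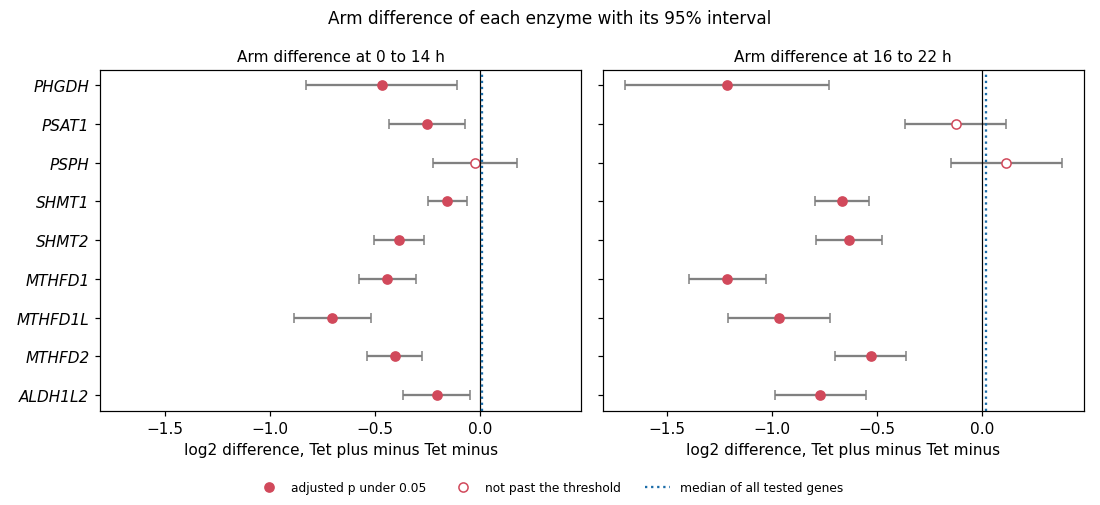
Log2 difference, Tet plus minus Tet minus (x axis), of each of the 9 enzymes (y axis) averaged over 0 to 14 h (left) and 16 to 22 h (right). Points are the fitted differences, filled where the adjusted p was under 0.05, bars are 95% intervals, and the dotted line is the median of all tested genes; 8 enzymes on the left and 7 on the right lie below 0 with an adjusted p under 0.05, and PSPH spans 0 in both. With spike-in scaling all 9 lie above 0 at 16 to 22 h.

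Of the 3 steps of serine synthesis, the first and second were lower in Tet plus and the last did not pass the test. PHGDH, the entry enzyme, ranged from 52.4 to 137.7 CPM (median 104.1) in the 14 Tet plus libraries at 0 to 14 h and from 95.4 to 230.3 CPM (median 132.8) in the 14 Tet minus libraries. The arms overlapped, and 7 Tet plus libraries lay below the lowest Tet minus library. Its log2 difference was -0.47 (SE 0.176, 95% interval -0.83 to -0.11, adjusted p = 0.0338). Replicate 2 was above replicate 1 by 0.45 (Tet minus) and 0.59 (Tet plus) on the log2 scale, on average over these times, and within pairs of same number Tet plus was lower in 13 of 14. With a replicate block the SE was 0.0776 and the adjusted p 5.46e-06. Without the block the PHGDH call was lost when any of 14 libraries was left out, Tet plus replicate 1 or Tet minus replicate 2 at any of the 7 times (log2 difference -0.45 to -0.40, adjusted p 0.0521 to 0.0806).

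PSAT1, the aminotransferase, ranged from 34.4 to 71.2 CPM (median 39.2) in Tet plus and from 39.6 to 82.0 CPM (median 51.0) in Tet minus at 0 to 14 h. The ranges overlapped, with Tet plus lower in 13 of 14 pairs, the exception being replicate 2 at 6 h. Its log2 difference was -0.25 (SE 0.0878, adjusted p = 0.0236). The PSAT1 call was lost in a fit of the 0 to 14 h libraries alone (-0.25, adjusted p = 0.0643), and also without any of 6 libraries, Tet plus replicate 1 at 0, 3, 6 or 10 h and Tet minus replicate 2 at 3 or 10 h (-0.22 to -0.17, adjusted p 0.0508 to 0.0881). PSPH, the phosphatase that ends the route, had nearly the same range in both arms, 21.5 to 43.9 CPM (median 32.0) in Tet plus and 22.97 to 39.0 CPM (median 31.9) in Tet minus. Its log2 difference was -0.02 (SE 0.0969, 95% interval -0.22 to 0.18, adjusted p = 0.884). A difference as large as that of MTHFD1L lies outside that interval. PSPH has a known pseudogene copy, and so do PSAT1 and SHMT1, so their counts are uncertain to the extent that reads were shared.

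Both serine hydroxymethyltransferases were lower in Tet plus. SHMT2 ranged from 110 to 161.6 CPM (median 122.1) in Tet plus and from 146.5 to 206.6 CPM (median 163.7) in Tet minus at 0 to 14 h. It was lower in Tet plus in 14 of 14 pairs, and 12 Tet plus libraries lay below the lowest Tet minus library. The log2 difference of SHMT2 was -0.38 (SE 0.0574, adjusted p = 5.73e-06). SHMT1, the cytosolic form, ranged from 35.3 to 69.1 CPM (median 52.1) in Tet plus and from 46.5 to 67.5 CPM (median 55.4) in Tet minus. Its arms were nearly level at 0 and 3 h and further apart from 10 h on, and the average difference over 0 to 14 h was small, -0.15 (SE 0.0462, adjusted p = 0.00886), with 13 of 14 pairs lower.

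The 3 mitochondrial enzymes that follow SHMT2 were all lower in Tet plus. MTHFD1L, the formate-releasing synthetase, ranged from 47.8 to 80.1 CPM (median 61.9) in Tet plus and from 83.9 to 128.9 CPM (median 100.4) in Tet minus at 0 to 14 h. Every Tet plus library lay below every Tet minus library, which was so for 1.09% of all tested genes and for none of the other 8 members. The log2 difference of MTHFD1L was -0.70 (SE 0.0885, 95% interval -0.88 to -0.52, adjusted p = 4.49e-07). MTHFD2, the dehydrogenase and cyclohydrolase, ranged from 246.7 to 386.9 CPM (median 273.1) in Tet plus and from 292.3 to 443.1 CPM (median 381.4) in Tet minus. Its arms overlapped, with 13 of 14 pairs lower and a log2 difference of -0.41 (SE 0.0627, adjusted p = 9.13e-06).

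ALDH1L2, the formyltetrahydrofolate dehydrogenase, was the least abundant member, at 16.8 to 37.6 CPM (median 22.4) in Tet plus and 20.9 to 34.6 CPM (median 26.7) in Tet minus at 0 to 14 h. Its highest value of all was in Tet plus, in replicate 2 at 6 h, and 12 of 14 pairs were lower. The log2 difference of ALDH1L2 was -0.20 (SE 0.0777, adjusted p = 0.0358). The call was lost without any of 13 libraries (log2 difference -0.20 to -0.16, adjusted p 0.0531 to 0.0877), namely Tet plus replicate 1 at 0, 6 or 8 h, Tet plus replicate 2 at 3, 12 or 14 h, Tet minus replicate 1 at 0, 6, 8, 12 or 14 h and Tet minus replicate 2 at 3 or 10 h. Leaving out a single library, namely Tet plus replicate 1 at 0 or 6 h or Tet minus replicate 2 at 3 or 10 h, took the count of lower members from 8 to 5. PHGDH, PSAT1 and ALDH1L2 were the members lost in those 4 cases, while SHMT1, SHMT2, MTHFD1, MTHFD1L and MTHFD2 passed the threshold whichever single library of the 44 was left out. All these fits were without a replicate block. With the block and all 44 libraries PHGDH, PSAT1 and ALDH1L2 were called lower too. Leaving out single libraries was not tried with the block.

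MTHFD1, the cytosolic enzyme that takes up formate, ranged from 133.4 to 246.5 CPM (median 165.9) in Tet plus and from 196.0 to 311.7 CPM (median 222.1) in Tet minus at 0 to 14 h. It was lower in Tet plus in 14 of 14 pairs, and 12 Tet plus libraries lay below the lowest Tet minus library. The log2 difference of MTHFD1 was -0.44 (SE 0.0662, adjusted p = 6.14e-06).

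Levels were compared between enzymes only after division by transcript length, for which the longest coding transcript of the best APPRIS rank in GENCODE v29 was used. In Tet minus at 0 to 14 h MTHFD2 was highest at 85.6 ± 10.6 CPM per kilobase (SD over 14 libraries, which also spans the times), followed by MTHFD1 at 74.6 ± 10.7, SHMT2 at 66.04 ± 6.68 and PHGDH at 52.3 ± 14.2. A lower set followed, MTHFD1L at 27.7 ± 3.87, PSAT1 at 24.3 ± 5.24, SHMT1 at 23.2 ± 3.02 and PSPH at 14.6 ± 2.08, with ALDH1L2 last at 3.58 ± 0.598. Mean ± SD overlapped between neighbours within the first 4 and among MTHFD1L, PSAT1 and SHMT1, and did not between PHGDH and MTHFD1L, SHMT1 and PSPH, or PSPH and ALDH1L2. In Tet plus the first 4 kept their order, at 64.8 ± 8.72, 55.2 ± 9.94, 50.7 ± 5.90 and 38.1 ± 11.9 CPM per kilobase. MTHFD1L, at 17.1 ± 2.82, then stood below SHMT1 (21.1 ± 4.42) and PSAT1 (20.6 ± 5.32), with all 3 intervals overlapping.

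**Figure D2:**
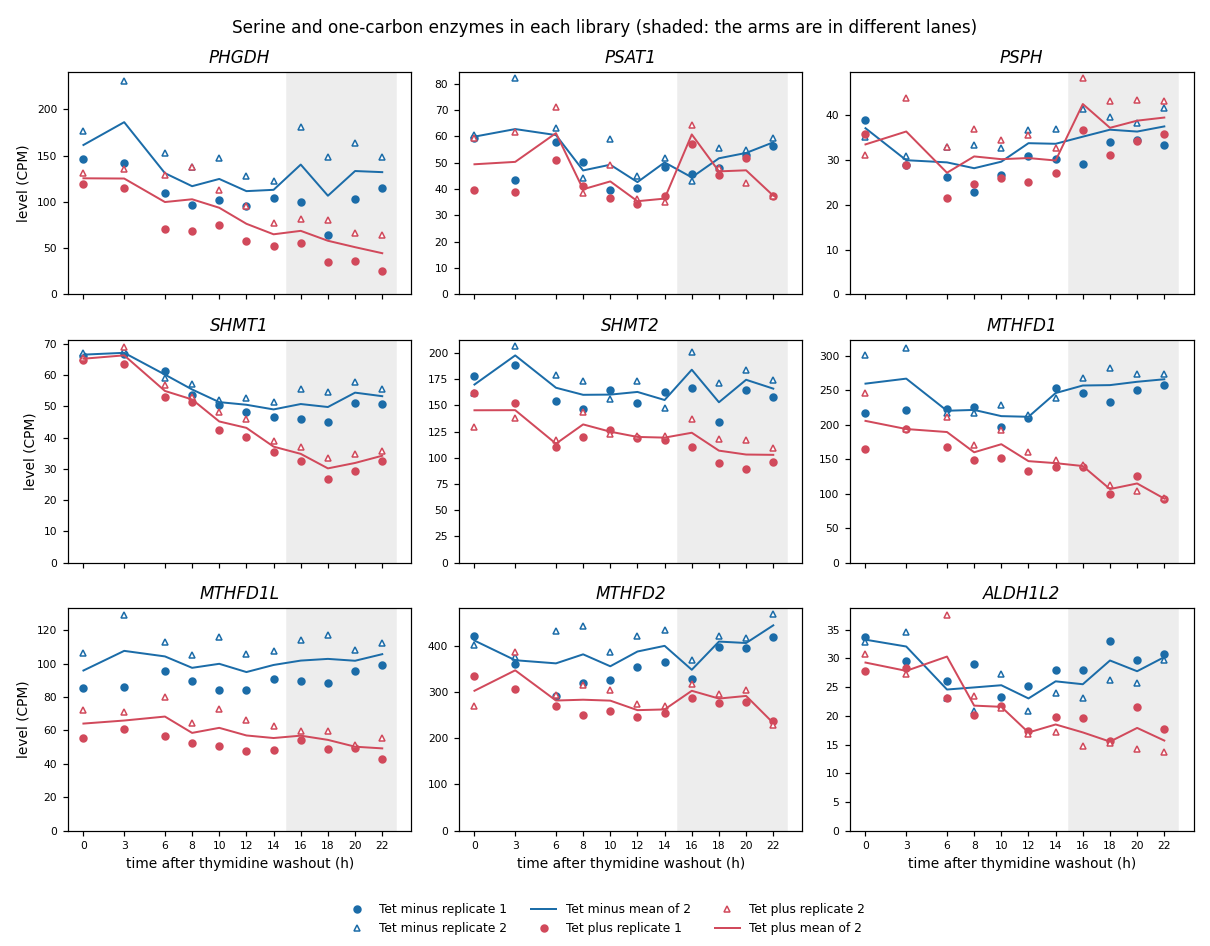
Level of each enzyme in CPM (y axis, from 0, a scale of its own in each panel) against hours after thymidine washout (x axis) in all 44 libraries; circles are replicate 1, triangles replicate 2, lines the mean of 2 libraries, blue Tet minus and red Tet plus, and shading marks 16 to 22 h, where the arms are in different lanes. MTHFD1L is separated between the arms at every time, SHMT1 is nearly level at 0 and 3 h and wider apart from 10 h on, and PSPH overlaps throughout.

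At single times fewer members passed, since each arm then has 2 libraries. The members lower in Tet plus numbered 0 at 0 h, 0 at 3 h, 1 at 6 h (SHMT2), 0 at 8 h, 0 at 10 h, 1 at 12 h (MTHFD2) and 3 at 14 h (MTHFD1, MTHFD1L and MTHFD2). The share of all tested genes lower at those times was 1%, 1.7%, 4.44%, 2.06%, 2.04%, 2.57% and 3.34%. At 0, 3, 8 and 10 h, where edgeR made no lower call, 2, 3, 3 and 2 members had an unadjusted p under 0.05, and DESeq2 made 0 calls at each of the 4 times. No member was called higher at any time by this fit, with a replicate block or by DESeq2, and none had an unadjusted p under 0.05 in that direction. PSAT1 was called higher at 16 h with a replicate block within each time (0.45, SE 0.127, adjusted p = 0.00729), and with spike-in scaling there were 36 higher calls. At 16, 18, 20 and 22 h, where lane set and arm coincide, the lower members numbered 5, 6, 7 and 8, against 14%, 11.2%, 13.7% and 16.3% of all tested genes. The lower members with a replicate block numbered 2 at 0 h (MTHFD1L and MTHFD2), 3 at 3 h (SHMT2, MTHFD1 and MTHFD1L), 2 at 6 h (SHMT2 and MTHFD1L), 3 at 8 h (MTHFD1, MTHFD1L and MTHFD2), 1 at 10 h (MTHFD1L) and 4 at 12 h (SHMT2, MTHFD1, MTHFD1L and MTHFD2). The share of all tested genes lower at those 6 times was then 4.15%, 4.7%, 9.48%, 6.4%, 4.95% and 6.56%. At 14 h the block gave 6 lower members (PHGDH, SHMT1, SHMT2, MTHFD1, MTHFD1L and MTHFD2), against 8.21% of all tested genes. At 16, 18, 20 and 22 h it gave 6, 7, 7 and 8, against 19.5%, 15.9%, 19% and 21%. Over the 11 times together 31 of 99 member tests were lower calls, against 6.58% of all tests, and 49 of 99 with a replicate block, against 10.9%. In both fits more of these calls came from 16 to 22 h, where arm and lane set coincide, than from 0 to 14 h.

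The difference of MTHFD1L lay between -0.58 and -0.84 on the log2 scale at each of the 7 times from 0 to 14 h, and stood at -0.58 (SE 0.234, adjusted p = 0.248) at 0 h, the end of the thymidine arrest. With a replicate block its adjusted p was 7.19e-04 at 0 h and ranged from 2.66e-06 to 1.87e-04 at the other 6 times. At 0 h MTHFD1L was at 55.7 and 72.5 CPM in the Tet plus libraries and at 85.3 and 106.3 CPM in the Tet minus libraries. The difference of SHMT1 was -0.03 at 0 h, -0.02 at 3 h, -0.13 at 6 h, -0.09 at 8 h, -0.19 at 10 h, -0.23 at 12 h and -0.40 at 14 h (SE 0.123, adjusted p = 0.0530 at 14 h; with a replicate block SE 0.0912, adjusted p = 0.00273). At 14 h SHMT1 was at 35.3 and 38.9 CPM in Tet plus and at 46.5 and 51.5 CPM in Tet minus, without overlap. A change of the arm difference with time over 0 to 14 h was called for none of the 9 members (0.0138% of all tested genes), none had an unadjusted p under 0.05 and DESeq2 called none, so a difference in shape between MTHFD1L and SHMT1 was not shown.

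**Figure D3:**
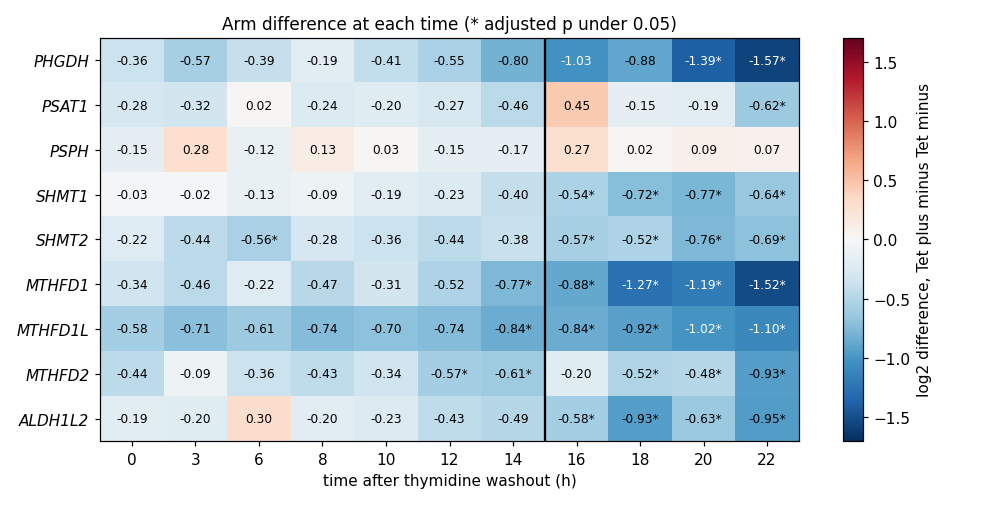
Log2 difference, Tet plus minus Tet minus, of each enzyme (y axis) at each time after washout (x axis, hours), printed in the cells and coloured from blue (lower in Tet plus) to red (higher); an asterisk marks an adjusted p under 0.05 and the black line separates 0 to 14 h from 16 to 22 h, where arm and lane set coincide. The row of MTHFD1L lies between -0.58 and -0.84 from 0 to 14 h and stands at -1.10 at 22 h; values are on the TMM scale, and with spike-in scaling the signs from 16 h on are positive.

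Without a replicate block few of the members' own courses after release were called as changing. More were called with the block, as given below. From 0 to 14 h SHMT1 was called for change over time in Tet minus (adjusted p = 0.0201), the only member of 9 (14.5% of all tested genes). Its mean fell from 66.5 CPM at 0 h to 49.0 CPM at 14 h. This call was lost without Tet minus replicate 1 or 2 at 0 h or at 3 h (adjusted p 0.0511 to 0.0733) and without a filter on low counts (0.0787). In Tet plus, SHMT1 (adjusted p = 5.67e-05) and ALDH1L2 (adjusted p = 0.0195) were called, 2 of 9 (10.4% of all tested genes). SHMT1 fell there from 65.2 to 37.1 CPM between 0 and 14 h, and ALDH1L2 from 29.3 to 18.5 CPM. The ALDH1L2 call was lost without Tet plus replicate 1 or 2 at 12 h or replicate 2 at 14 h (adjusted p 0.0525 to 0.0560).

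PHGDH had the widest mean course in Tet plus, 0.97 on the log2 scale from its highest time (0 h) to its lowest (14 h), while its course in Tet minus spanned 0.71; the median of all tested genes was 0.49 and 0.53. Replicate 1 of PHGDH in Tet plus went from 119.9 CPM at 0 h to 52.4 CPM at 14 h, and replicate 2 from 131.2 to 77.7 CPM. With a replicate block PHGDH was called in both arms (Tet minus, adjusted p = 0.0226; Tet plus, 0.00264). The members called with the block were then 2 in Tet minus, PHGDH and SHMT1 (34.3% of all tested genes), and 5 in Tet plus, PHGDH, PSAT1, SHMT1, MTHFD1 and ALDH1L2 (25.9%). MTHFD1L had the narrowest course in Tet minus, 0.16 on the log2 scale, and in Tet plus, 0.29.

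Lane numbers change along the course, so changes were also read within sets of times that share lane numbers. Between 6 and 0 h none of the 9 members changed in either arm (2.35% of all tested genes in Tet minus and 2.5% in Tet plus), with 1 member in each arm at an unadjusted p under 0.05. Between 12 and 8 h none changed (0.833% and 0.22%), with 0 and 1 members at an unadjusted p under 0.05. DESeq2 called no member in these 4 comparisons. Between 22 and 16 h no member changed in Tet minus (1.64%; 1 member at an unadjusted p under 0.05, 0 by DESeq2). In Tet plus MTHFD1 fell by 0.59 on the log2 scale between those times (SE 0.178, adjusted p = 0.0397), from 138.3 and 141.5 CPM to 92.0 and 93.3 CPM (7.24% of all tested genes changed). These Tet plus libraries have equal lane numbers by replicate number. The MTHFD1 call was lost without any of 8 libraries, Tet plus replicate 1 or 2 at 16 or 22 h, Tet plus replicate 2 at 3 h, Tet minus replicate 1 at 16 h and Tet minus replicate 2 at 6 or 10 h. Without Tet minus replicate 1 or 2 at 3 h, 2 member calls were made over these 6 comparisons in place of 1. With a replicate block PHGDH, PSAT1, MTHFD1 and MTHFD2 were called in Tet plus (18.3%) and none in Tet minus (12.3%).

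The arm difference was also estimated within each lane set of the first 14 h, a split chosen after the data were seen. SHMT2, MTHFD1, MTHFD1L and MTHFD2 passed the threshold both at 0 to 6 h and at 8 to 12 h, and MTHFD1, MTHFD1L and MTHFD2 at 14 h. Of all tested genes 10.5% were lower at 0 to 6 h and 11.7% at 8 to 12 h. PHGDH, PSAT1, SHMT1 and ALDH1L2 passed in none of the 3 sets in this fit. In the blocked fit 5 members were lower at 0 to 6 h, PHGDH (adjusted p = 0.00550) being added (15.8% of all tested genes). At 8 to 12 h 7 were lower with the block (17.2%), the added ones being PHGDH (0.00733), SHMT1 (0.0131) and ALDH1L2 (0.0429). At 14 h the 6 named above were lower with it, the added ones being PHGDH (0.00573), SHMT1 (0.00273) and SHMT2 (0.0432). PSAT1 and PSPH passed in no lane set with or without the block. For ALDH1L2 the difference was -0.03 at 0 to 6 h, -0.29 at 8 to 12 h and -0.49 at 14 h, and for SHMT1 it was -0.06, -0.17 and -0.40. For MTHFD1L it was -0.63, -0.72 and -0.84, and for PHGDH -0.44, -0.38 and -0.80. Without the block the sign was negative in all 3 sets for 8 of the 9 members, PSPH being near 0 at 0 to 6 h and 8 to 12 h.

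At 16 to 22 h 7 of the 9 enzymes were lower in Tet plus and none higher on the TMM scale (with spike-in scaling all 9 were higher), against 26.8% and 26.3% of all tested genes. No member was higher at an unadjusted p under 0.05 or by DESeq2. The median log2 difference of the 9 was -0.67, against 0.02 over all tested genes. PHGDH and MTHFD1 differed most, each at 0.431 times the Tet minus level. These values cannot be told apart from a difference between lane sets, with the spike-in shares given above differing between the same libraries. The cycle landmarks given below also differed between the arms at these times, and their part was not tested.

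PHGDH ranged from 24.9 to 81.8 CPM (median 60.0) in the 8 Tet plus libraries at 16 to 22 h and from 64.5 to 181.1 CPM (median 132.1) in the 8 Tet minus libraries, with a log2 difference of -1.22 (SE 0.237, adjusted p = 1.07e-04). The lowest Tet minus library, replicate 1 at 18 h, fell within the Tet plus range. MTHFD1 ranged from 92.0 to 141.5 CPM (median 108.3) in Tet plus and from 233.0 to 281.4 CPM (median 262.6) in Tet minus, with a log2 difference of -1.21 (SE 0.0891, adjusted p = 1.27e-11). Its arms were far apart. No Tet plus library overlapped the Tet minus libraries for MTHFD1, SHMT1, MTHFD1L, MTHFD2 and ALDH1L2, 5 of the 9 members, against 9.52% of all tested genes.

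MTHFD1L was at 42.8 to 59.5 CPM in Tet plus and 88.2 to 117.3 CPM in Tet minus at 16 to 22 h (log2 difference -0.97, SE 0.119, adjusted p = 1.28e-07). ALDH1L2 was at 13.7 to 21.5 and 23.1 to 33.1 CPM (-0.77, SE 0.105, adjusted p = 7.64e-07). SHMT1 was at 26.7 to 37.0 and 45.0 to 57.8 CPM (-0.67, SE 0.0624, adjusted p = 1.11e-09). In none of these 3 did the arms overlap. SHMT2 overlapped slightly, at 89.2 to 137.4 and 134.5 to 201.1 CPM (-0.63, SE 0.0764, adjusted p = 9.97e-08). MTHFD2 was at 229.5 to 317.6 and 327.7 to 470.2 CPM (-0.53, SE 0.0832, adjusted p = 5.89e-06).

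The last 2 steps of serine synthesis did not pass at 16 to 22 h. PSAT1 was at 37.4 to 64.2 CPM in Tet plus and 43.2 to 59.2 CPM in Tet minus (-0.13, SE 0.117, 95% interval -0.37 to 0.11, adjusted p = 0.374). Its 2 Tet plus libraries at 16 h, 57.2 and 64.2 CPM, lay above both Tet minus libraries of that time, 45.6 and 43.2 CPM, whereas at 22 h both, 37.4 and 37.5 CPM, lay below the Tet minus libraries, 56.2 and 59.2 CPM (-0.62, SE 0.236, adjusted p = 0.0482). PSPH was at 31.3 to 48.4 and 29.2 to 41.6 CPM (0.11, SE 0.129, 95% interval -0.15 to 0.38, adjusted p = 0.475).

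The arm difference at 16 to 22 h minus that at 0 to 14 h was called negative for SHMT1, MTHFD1 and ALDH1L2, 3 of the 9 members. These were lower in Tet plus by more in the later period. Of all tested genes 12.3% were called negative, whatever the sign of their arm difference. No member was called positive (8.24% of all tested genes), and none was positive at an unadjusted p under 0.05 or by DESeq2. The difference between the periods was -0.77 for MTHFD1 (SE 0.110, adjusted p = 9.47e-06), -0.57 for ALDH1L2 (SE 0.131, adjusted p = 0.00236) and -0.52 for SHMT1 (SE 0.0775, adjusted p = 1.90e-05). It was of similar size for PHGDH, -0.75, with a wide error (SE 0.293, adjusted p = 0.0712). With a replicate block 6 members passed (17.2% of all tested genes), PHGDH (adjusted p = 5.01e-05), SHMT2 (0.0184) and MTHFD1L (0.00295) being the added ones. Without the block PHGDH passed when Tet minus replicate 1 at 18 h, or Tet plus replicate 2 at 18 or 22 h, was left out (-0.96 to -0.87, adjusted p 0.0213 to 0.0342), and without either of the 2 libraries at 18 h named here the count rose from 3 to 5, the added members being PHGDH and SHMT2. The lane set of the late Tet plus libraries enters this difference too.

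Genes with the course most like that of each member were taken as the 3 highest Pearson correlations over the 14 group means at 0 to 14 h, among tested genes whose mean log2 CPM was 3 or more. These means share arms, times and libraries, and genes are not independent, so the values are descriptions. SHMT1 was nearest to POLA2 (r = 0.985), a subunit of DNA polymerase alpha, then to the kinase PASK (0.968) and to PKMYT1 (0.961), an inhibitory kinase of CDK1. SHMT2 was nearest to AHCY (0.986), which clears S-adenosylhomocysteine, then to MRPL37 (0.980), a mitochondrial ribosomal protein, and to FAM195A (0.976). MTHFD2 was nearest to LOC728554 (0.964), GPN3 (0.962) and MCM3 (0.961), the last a subunit of the replicative helicase.

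MTHFD1 was nearest to OXA1L (0.953), an insertase of the inner mitochondrial membrane, CHRAC1 (0.952) and MYO19 (0.950), a myosin of mitochondria. MTHFD1L was nearest to PRKAR2A (0.977), a regulatory subunit of protein kinase A, to CD3EAP (0.977), a subunit of RNA polymerase I, and to LAMA1 (0.975). ALDH1L2 was nearest to FOXP1 (0.954), DCLRE1B (0.940) and RAD54L (0.939), the last a recombination protein. PHGDH was nearest to PCSK6 (0.974), SIPA1 (0.969) and the thymidine kinase TK1 (0.967), and PSAT1 to NETO1 (0.951), USP31 (0.941) and GJC1 (0.926). PSPH had the lowest values of the 9, with ARPC1A (0.893), CRTAP (0.861) and DBR1 (0.860).

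Among the members themselves the highest correlations over the same 14 means were between MTHFD1 and MTHFD2 (r = 0.913), MTHFD1L and MTHFD2 (0.905) and PHGDH and MTHFD1 (0.902). The 2 genes with an E-box in their window, MTHFD1 and MTHFD1L, correlated at 0.899. The part of promoter motifs in these correlations was not tested. PSPH stood apart, from 0.059 with PSAT1 to 0.453 with MTHFD2.

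The cycle landmarks differed between arms as well. CCNE2, the G1/S cyclin E2, averaged 19.97 CPM at 14 h in Tet plus, where Tet minus averaged 55.1 CPM (2 libraries each), after 72.2 and 88.3 CPM at 0 h, and its log2 difference over 0 to 14 h was -0.44 (SE 0.0854, adjusted p = 1.84e-04). From 8 to 14 h CCNE2 thus went from 18.9 to 55.1 CPM in Tet minus and from 18.5 to 19.97 CPM in Tet plus. CCNB1, the mitotic cyclin B1, had its highest mean at 8 h in Tet minus (648.5 CPM) and at 10 h in Tet plus (614.2 CPM), with a difference of -0.19 (SE 0.0609, adjusted p = 0.0139). At 16 to 22 h the edgeR difference on the TMM scale was -0.84 for CCNE2 (SE 0.114, adjusted p = 6.75e-07). For CCNB1 it was -0.51 (SE 0.0811, adjusted p = 7.2e-06). CCNB1 averaged 167.7 CPM in Tet minus and 219 CPM in Tet plus at 16 h, and 325.2 and 119.8 CPM at 22 h. Arm and lane set coincide at these times. The part of cycle position in the members' differences was not tested in either period.

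**Figure D4:**
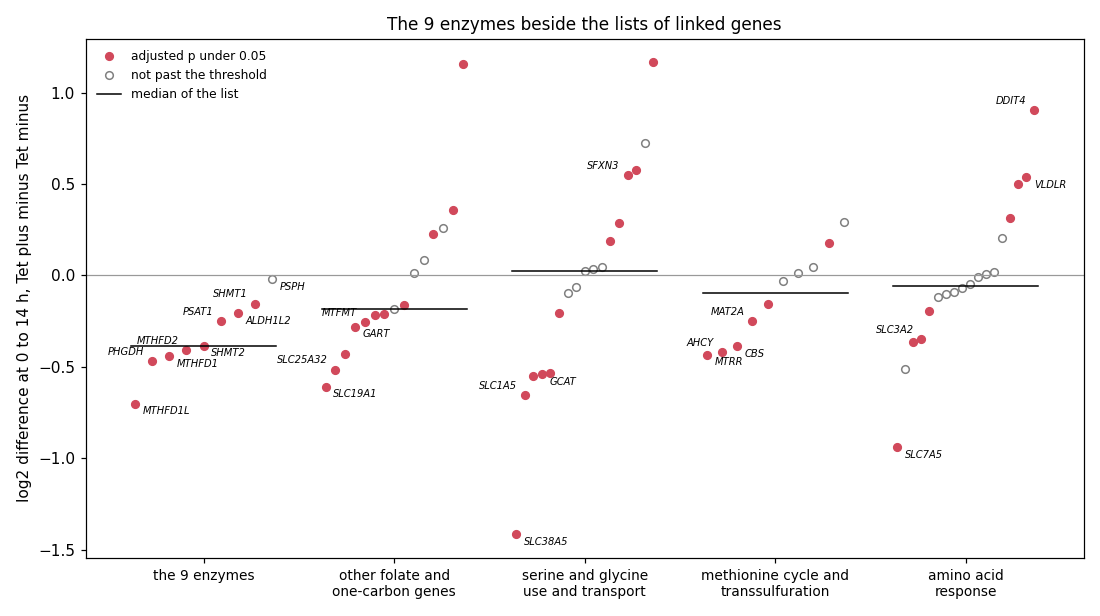
Log2 difference at 0 to 14 h, Tet plus minus Tet minus (y axis), of every tested gene of 5 lists (x axis, genes in order of their value within each list). Filled points had an adjusted p under 0.05 and black lines are medians of the lists. Names mark the members and the 4 genes of smallest adjusted p in each other list. The median of the 9 enzymes is -0.38 and those of the other 4 lists lie between -0.18 and 0.03.

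Linked pathways were read from 4 further lists, and the 4 genes of smallest adjusted p at 0 to 14 h are named from each. Their counts stand beside the shares of all tested genes already given, 21.3% lower and 20.1% higher at 0 to 14 h and 26.8% lower and 26.3% higher at 16 to 22 h, and a count near those shares is no result about its list. Of 15 tested genes in other folate and one-carbon metabolism, 8 were lower and 3 higher in Tet plus at 0 to 14 h (median -0.18). The plasma membrane folate carrier SLC19A1 had a mean of 34.9 CPM with the hairpin induced and 53.5 CPM without (log2 difference -0.61, SE 0.0613, adjusted p = 1.13e-08). The mitochondrial folate carrier SLC25A32 was lower by a similar amount, -0.52 (SE 0.0549, adjusted p = 2.86e-08), at 60.4 against 86.5 CPM. At 16 to 22 h the difference of SLC25A32 was -0.02 (SE 0.0727, adjusted p = 0.801). GART, a formyltetrahydrofolate-using enzyme of purine synthesis, differed by -0.28 (adjusted p = 0.00173) and MTFMT, which formylates the mitochondrial initiator tRNA, by -0.25 (adjusted p = 0.00227). At 16 to 22 h 4 of the 15 were lower, near the share of all tested genes, and 1 higher (median -0.12).

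Of 17 tested genes of serine and glycine use and transport, 6 were lower and 5 higher at 0 to 14 h (median 0.03), and 6 lower and 3 higher at 16 to 22 h. SLC38A5, a transporter of glutamine, serine and glycine, had a mean of 30.3 CPM with induction and 81.2 CPM without (-1.42, SE 0.0956, adjusted p = 7.82e-12), a larger difference than that of any member. SLC1A5, a neutral amino acid exchanger, differed by -0.66 (adjusted p = 2.69e-09) and GCAT, which forms glycine from threonine products, by -0.54 (adjusted p = 1.19e-05). SFXN3, a mitochondrial serine carrier, went the other way, at 24.96 against 17.1 CPM (0.55, SE 0.104, adjusted p = 1.30e-04). Its relative SFXN1, of the same list and named after its values were seen, was lower (-0.20, SE 0.0541, adjusted p = 0.00363).

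Of 10 tested genes of the methionine cycle and transsulfuration, 5 were lower and 1 higher both at 0 to 14 h (median -0.09) and at 16 to 22 h. MTRR, the reductase that keeps methionine synthase active, differed by -0.43 (adjusted p = 6.95e-07), AHCY by -0.42 (adjusted p = 1.73e-07), CBS, the first enzyme of transsulfuration, by -0.39 (adjusted p = 5.17e-07) and MAT2A, which makes S-adenosylmethionine, by -0.25 (adjusted p = 0.00481). Of 18 genes of the amino acid response 4 were lower and 4 higher at 0 to 14 h (median -0.06), both near the shares of all tested genes, and 7 lower and 3 higher at 16 to 22 h. ATF4 itself, named after its values were seen, was lower at 0 to 14 h (log2 difference -0.19, SE 0.0643, adjusted p = 0.0169) and stood at -1.08 at 16 to 22 h (adjusted p = 6.04e-11). Also named after their values were seen, DDIT3 (0.31, adjusted p = 0.00278) and SESN2 (0.50, adjusted p = 0.00461) were higher at 0 to 14 h. XPOT was lower (-0.36, adjusted p = 0.0026). The part of ATF4 in the members' differences was not tested. The transporter chains SLC7A5 (-0.94, SE 0.0763, adjusted p = 2.27e-10) and SLC3A2 (-0.35, SE 0.04995, adjusted p = 3.45e-06), which pair to import large neutral amino acids, were lower, while DDIT4, an inhibitor of mTORC1 signalling, rose (0.90, SE 0.0731, adjusted p = 2.16e-10), as did the lipoprotein receptor VLDLR (0.54, SE 0.0666, adjusted p = 3.26e-07).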

How the data were processed

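rRNA-depleted, strand-marking RNA libraries were made from cells with ERCC spike-ins added, per the labels' protocols. The authors deposited raw read counts per gene for 23367 genes and 92 ERCC transcripts in 44 libraries. Reads were aligned with TopHat2 2.0.5 to hg19 and counted with HTSeq, per the submitters' processing notes; the annotation and strand setting are not given in the sources. No library's columns were left unused.

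Samples were grouped by arm and time from their labels. ERCC counts were kept out of library sizes. Counts were scaled by TMM, filtered with filterByExpr (14534 genes kept) and fitted with edgeR 4.0.16 (R 4.3.3, limma 3.58.1) as 22 group means with 22 residual degrees of freedom; quasi-likelihood tests were adjusted by Benjamini-Hochberg over all tested genes at 0.05. SE is the log2 difference divided by the square root of F. CPM used TMM library sizes, and log2 CPM a prior count of 2. The scripts were tested on simulated data. Alternatives were a replicate block, a replicate block within each time, DESeq2 1.42.0 as test or size factors, ERCC scaling, no filter, fits of 1 period, single lane sets without and with the block, and leaving out each library.

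Same-numbered libraries of both arms deviated together at every time (lowest correlation 0.373 over the 7 times of 0 to 14 h and 0.263 over the 4 times of 16 to 22 h), so the numbers were taken to pair the libraries and the paired fit is given where it changes a call. Libraries of a group differed beyond sampling noise in all 22 pairs (chi-square per degree of freedom 8.48 to 48.8). The 9 members and all gene lists were chosen with earlier results of these data known. Some genes of the lists are not reported here and are left out of the list counts. Genes named beside the members are MYCN, CCNE2 and CCNB1, the 4 of smallest adjusted p at 0 to 14 h in each list, and the 3 most correlated with each member. ATF4, DDIT3, SESN2, XPOT and SFXN1 were added after their values were seen. Promoter windows and gene lengths are on GRCh38 and were matched by symbol; no hg19 coordinates are given.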

Additional observations from a re-analysis of the deposited data

Results flagged for a closer look

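For 3 of the 9 enzymes the test of the difference itself found the arm difference at 16 to 22 h unlike that at 0 to 14 h. The later log2 difference minus the earlier one was -0.52 for SHMT1, -0.77 for MTHFD1 and -0.57 for ALDH1L2 (edgeR, adjusted p = 1.90e-05, 9.47e-06 and 0.00236). SHMT1 went from -0.15 to -0.67, MTHFD1 from -0.44 to -1.21 and ALDH1L2 from -0.20 to -0.77. At 16 to 22 h the arms were in different lanes, so arm and lane set cannot be told apart in the later values.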

How the results depend on the processing

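The replicate block, which takes the numbers as paired, moved the member calls at single times from 31 to 49, those within lane sets from 1 to 4, courses from 1 to 2 in Tet minus and from 2 to 5 in Tet plus, and the difference between periods from 3 to 6. It changed no call of a member at 0 to 14 h or at 16 to 22 h. With a replicate block within each time the single-time calls were 56 lower and 1 higher and the difference between periods 6. DESeq2's test gave 2 calls within lane sets, and no filter on low counts gave 0 courses in Tet minus. The members lower at 0 to 14 h were 4 in the 0 to 6 h lane set, 4 in that of 8 to 12 h and 3 at 14 h, and with a replicate block 5, 7 and 6. Leaving out each library gave 5 to 8 lower members at 0 to 14 h, 7 to 7 at 16 to 22 h, 3 to 5 for the difference between periods, 24 to 31 at single times, 0 to 1 and 1 to 3 courses in Tet minus and Tet plus, 0 to 2 calls within lane sets and 0 to 0 for arm by time. Of the values near 0, PSPH at 0 to 14 h took the other sign in 2 lane sets (0.0044 and 0.0019), with ERCC scaling (0.0433) and in some leave-one-out fits (-0.0678 to 0.0263), as did CCNB1 at 14 h (0.11, and 0.1175 with the block) and the period difference of GCAT with DESeq2's size factors (0.0061) and test (0.0062). Leave-one-out fits also spanned 0 for SLC25A32 at 16 to 22 h (-0.0607 to 0.0115) and for the period differences of GCAT (-0.0635 to 0.0475) and MYCN (-0.0239 to 0.0537).

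ERCC scaling gave 0 lower members at 0 to 14 h, 9 higher and 0 lower at 16 to 22 h, 36 higher and 0 lower single-time calls, 0 calls within lane sets, 0 courses in either arm, and 9 higher and 0 lower for the difference between periods. It turned the sign at 16 to 22 h of PHGDH 3.13, PSAT1 4.28, SHMT1 3.71, SHMT2 3.74, MTHFD1 3.20, MTHFD1L 3.44, MTHFD2 3.86, ALDH1L2 3.63, SLC19A1 3.41, SLC25A32 4.37, GART 4.08, MTFMT 4.27, SLC38A5 2.80, SLC1A5 2.90, GCAT 3.82, AHCY 3.88, CBS 3.70, MTRR 3.83, MAT2A 3.62, SLC7A5 2.92, SLC3A2 3.72, MYCN 4.12, CCNE2 3.47 and CCNB1 3.84. For the difference between periods it turned PHGDH 3.51, SHMT1 3.76, SHMT2 3.98, MTHFD1 3.53, MTHFD1L 4.05, MTHFD2 4.16, ALDH1L2 3.71, SLC19A1 3.85, GART 4.28, SLC38A5 4.03, SLC1A5 3.42, GCAT 4.22, AHCY 4.16, CBS 3.95, MTRR 4.15, MAT2A 3.76, SLC7A5 3.69, SLC3A2 3.93, CCNE2 3.83 and CCNB1 3.89. The spike-in share differed between the arms in those libraries, and the cause was not tested. With 2 libraries per arm and time, single-time tests had little precision.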
